A study of Mus musculus with 18 samples.

Results

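The loci described here are 227 loci of the mouse testis, from a table of mostly noncoding transcripts, whose RNA stood high in 2 libraries labelled pacSC, a name commonly read as pachytene spermatocytes, and low in libraries of the stages before and after. They were chosen from 13218 loci by 3 thresholds on FPKM (sequenced fragments divided by transcript length and by the library's mapped fragments). The mean of pacSC replicates 1 and 2, called P here, had to reach 5 FPKM. P also had to be at least 4 times the mean of rST replicates 2 and 3 with 0.1 FPKM added, and at least 4 times the mean of priSG-B replicates 1 to 3 with 0.1 FPKM added. Of the 237 loci that passed, 7 with names of opposite-strand transcripts and 3 set aside by name were dropped, which left the 227. The levels in these 7 libraries chose the loci, so they are given as a description with no test. The other 11 libraries took no part in the choice.

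RNA came from germ cells of ICR mouse testes, which were parted by their sedimentation velocity (STA-PUT), a property that depends mostly on cell size. The 6 types carry the labels priSG-A at postnatal day 6, priSG-B at day 9, plpSC at day 14, pacSC at day 21, rST at day 35 and elST at day 56, with 3 libraries each. The labels do not spell the type names out, but in this field SG is commonly short for spermatogonia, SC for spermatocytes and ST for spermatids. The design text speaks of duplicates and the labels give 3 numbered samples per type. All types shared the strain and tissue, and the labels name no treatment. No label tells whether the 3 libraries of a type came from separate animals, so a p-value here measures the spread between libraries, which may be technical.

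Pachytene is the long stage of meiotic prophase in which paired homologous chromosomes recombine and the X and Y chromosomes are silenced as a body. In the mouse, the transcription factor A-MYB, encoded by Mybl1, switches on many genes at this stage. Among them are the precursors of pachytene piRNAs, small RNAs bound by PIWI proteins, and many of these precursors start back to back from shared promoters. The testis also transcribes many long noncoding RNAs with no known function. The deposited table does not mark piRNA precursors, and small RNAs were not measured.

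Position and annotation were the first measures that the choice did not use. Of the 227 loci, 221 were found in the GENCODE M21 annotation, and shares are of these beside shares of 4103 annotated loci among the 4117 that reached 1 FPKM in at least 3 libraries. Intergenic lincRNAs made up 118 of the 227 loci (53.4%, against 36.3% of all loci tested). Antisense transcripts made up 42 of them (19%, against 28.4%). The annotation types 4 as protein-coding (1.81%, against 0.999%): Gm10762, Gm17467, Gm17577 and C730034F03Rik, so the set is not wholly noncoding. No other gene on either strand overlapped 111 loci (50.2%, against 33.6%). The median spliced length was 1060.0 bp, against 1100.0 bp over all loci tested, with a range of 164 to 17803 bp and a median of 2 exons in both. Almost all names were numbers: 137 were Gm names, 83 were RIKEN names and 7 were others.

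Starts close to another start on the opposite strand were counted at 70 loci (31.7%, against 24.7% of all loci tested), within 1000 bp. For 53 of these the partner was a protein-coding gene (24.0%, against 19.4%). Of these coding partners 3 are named, picked for what is known of them after the values were seen. Tdrkh, which encodes a tudor-domain protein of piRNA maturation, starts beside 1700040D17Rik. Hspa2, a testis-enriched heat shock protein needed in male meiosis, starts beside 4930426I24Rik, and the histone gene H2afx, whose phosphorylated protein marks the silenced sex chromosomes, starts beside Gm48853. These 3 coding partners are not in the table. The Illumina TruSeq kit used for the libraries keeps no record of strand, and at the 67 loci whose exons overlap a gene on the other strand (30.3%, against 34.0%) the 2 sources of reads could not be told apart.

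In 3 places both partners of such a pair were among the 227 loci, so that 6 of 221 loci had a partner within the set (2.71%). Of the 4103 annotated loci tested, 12 had a partner within the set (0.292%), and these 12 include the same 6. Promoter sequences are shown for the 2 closest pairs, because a single window of 300 bases holds both starts. The windows run 5′ to 3′ on the strand of the named locus, from 250 bases before its start to 50 after, as given by RefSeq on GRCm38.p6. The same window is shown for Rbakdn and 1700020N18Rik, abundant loci with no such partner. Capitals mark matches, on either strand, to a MYB-family core (AACNG) or to a TATA box (TATAAA).
1700100I10Rik, chr14:114945899-114946198, minus strand: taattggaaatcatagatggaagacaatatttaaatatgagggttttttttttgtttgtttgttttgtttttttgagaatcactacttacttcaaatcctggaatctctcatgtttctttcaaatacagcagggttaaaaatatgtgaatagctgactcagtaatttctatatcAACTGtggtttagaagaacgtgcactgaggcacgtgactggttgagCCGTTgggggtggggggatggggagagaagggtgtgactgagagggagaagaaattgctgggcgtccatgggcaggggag
Gm10619, chr7:73816454-73816753, minus strand: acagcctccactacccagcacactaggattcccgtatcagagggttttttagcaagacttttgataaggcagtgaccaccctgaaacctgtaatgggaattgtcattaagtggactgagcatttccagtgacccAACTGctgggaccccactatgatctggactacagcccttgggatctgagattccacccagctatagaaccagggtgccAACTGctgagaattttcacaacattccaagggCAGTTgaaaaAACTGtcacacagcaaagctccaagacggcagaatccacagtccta
Rbakdn, chr5:143165702-143166001, minus strand: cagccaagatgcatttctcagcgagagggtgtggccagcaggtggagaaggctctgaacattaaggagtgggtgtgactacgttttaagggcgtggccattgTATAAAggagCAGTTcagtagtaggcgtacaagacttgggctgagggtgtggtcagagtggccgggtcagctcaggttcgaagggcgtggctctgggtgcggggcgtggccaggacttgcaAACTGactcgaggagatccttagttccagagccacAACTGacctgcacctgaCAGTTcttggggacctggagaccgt
1700020N18Rik, chr1:91405980-91406279, minus strand: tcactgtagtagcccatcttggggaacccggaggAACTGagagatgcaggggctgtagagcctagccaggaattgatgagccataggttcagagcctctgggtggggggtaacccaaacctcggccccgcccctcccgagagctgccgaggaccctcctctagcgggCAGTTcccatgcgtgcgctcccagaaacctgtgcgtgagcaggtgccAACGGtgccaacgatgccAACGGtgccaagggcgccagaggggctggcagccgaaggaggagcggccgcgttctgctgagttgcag

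The start of Gm31072, on the plus strand, is base 200 of the 1700100I10Rik window, and the start of Gm21269 is base 208 of the Gm10619 window. AACNG occurred 2 times in the 1700100I10Rik window and 4 times in each of the other 3 windows, while 1700029M20Rik, a locus at 236 FPKM in P, had none in its window. The core is short: 80.3% of all 32851 RefSeq mouse promoter windows hold it. TATAAA stood at position -148 from the start of Rbakdn, and 13.6% of all windows hold it. The longer MYB form CCGTTA, the cyclic AMP response element TGACGTCA and GTTGCCAT, a part of the RFX box, had no match in these windows; 2.76%, 1.79% and 1.35% of all windows hold them. These matches are letters in a window and no measurement of binding. Only 102 of the 227 loci had a RefSeq window (44.9%), so no share of promoters with a motif is given over the set.

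The levels in pacSC replicates 1 and 2 spanned 4 orders of size. P ran from 5.0 to 59328 FPKM, with quartiles of 11.2, 19.7 and 47.8 FPKM, and 30 loci stood at 100 FPKM or more. The median ratio of P to the mean of rST replicates 2 and 3, the spermatid mean, was 9.28 and to the priSG-B mean 63.6, each with 0.1 FPKM added below the line. In priSG-B, 81 loci averaged under 0.1 FPKM. The 2 pacSC libraries gave similar levels, with Pearson's r of 0.90 over the 227 loci on the log2 scale (a description, since loci are not replicates). At 197 loci each of the 2 libraries met the thresholds alone and at 30 it did not. 16 loci differed more than 2-fold between them.

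**Figure D1:**
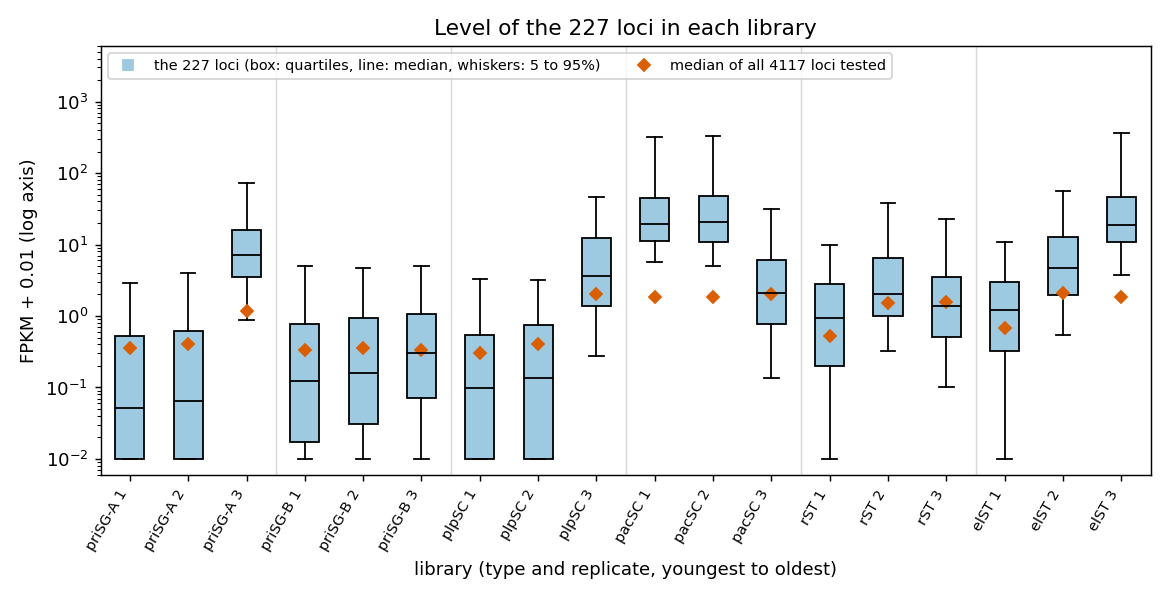
FPKM plus 0.01 on a log axis for the 227 loci in each of the 18 libraries; boxes span the quartiles with the median as a line, whiskers run from the 5th to the 95th percentile, and diamonds give the median of all 4117 loci tested. The box stands high in pacSC replicates 1 and 2, which chose the loci, and in elST replicate 3 (median 18.8 FPKM), while pacSC replicate 3 has a median of 2.1 FPKM.

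Libraries with the same label were far apart at these loci, and the third pacSC library did not share the high level. Its median over the 227 loci was 2.1 FPKM, close to the 2.04 FPKM of all loci tested, and 61 loci reached 5 FPKM (26.9%, against 31.2% of all loci tested). At a level of 1 FPKM the order turned, with 155 loci (68.3%, against 65.0%). The median locus stood at 9.86% of P there, and for no locus was it the highest library. In elST replicate 3, in contrast, the median was 18.8 FPKM, 212 loci reached 5 FPKM (93.4%, against 27.9%), and 211 lay within 2-fold of P. The name pachytene-peaking thus describes 2 of the 3 pacSC libraries, and a library labelled elST stood as high. For that reason the set is called the 227 loci below. The labels were kept as given. Whether libraries or labels were exchanged was not tested, and every value and test by type rests on the labels.

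Across the remaining libraries the set was near its floor in some and at intermediate levels in others. In priSG-A the median over the 227 loci was 0.0417, 0.0556 and 7.13 FPKM in replicates 1, 2 and 3. At least 5 FPKM was reached by 6, 10 and 138 loci there (2.64%, 4.41% and 60.8%, against 8.06%, 8.96% and 16.8% of all loci tested). In plpSC the medians were 0.0871, 0.127 and 3.58 FPKM, with 6, 6 and 92 loci at 5 FPKM (2.64%, 2.64% and 40.5%, against 8.26%, 8.7% and 30.8%). Replicate 3 was therefore the high library of both priSG-A and plpSC. rST replicate 1 had a median of 0.942 FPKM with 29 loci at 5 FPKM (12.8%, against 9.08%). elST replicates 1 and 2 had medians of 1.2 and 4.69 FPKM, with 30 and 108 loci at 5 FPKM (13.2% and 47.6%, against 8.89% and 30.4%).

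The spread within a label was wider for the 227 loci than for all loci tested in 5 of the 6 types. The median ratio of the highest to the lowest library, with 0.1 FPKM added to the lowest, was 27.3 in priSG-A (2.88 over all loci tested), 13.4 in plpSC (11.2), 10.7 in pacSC (2.97) and 17.6 in elST (8.83). In priSG-B the libraries were nearly equal, at 1.1 (1.04), and in rST the spread was narrower than over all loci, at 4.81 (9.36). The priSG-B, pacSC and rST libraries used by the choice enter these ratios. Over all loci tested, elST replicate 3 was closest to pacSC replicate 2 (Pearson's r 0.98 on the log2 scale), priSG-A replicate 3 to pacSC replicate 1 (0.80), plpSC replicate 3 to elST replicate 2 (0.96) and pacSC replicate 3 to rST replicate 3 (0.95).

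The ribosomal RNA-derived locus AY036118 moved with some of these differences. Its level was 7.41 FPKM in elST replicate 3 and 7.44 and 7.25 FPKM in pacSC replicates 1 and 2. It was 23.0 to 36.2 FPKM in the priSG-B libraries and between 2000 and 13900 FPKM in all the other libraries. priSG-A replicate 3 stood at 12900 FPKM and yet held 138 of the loci at 5 FPKM. The fragment length inferred from the values differed in the same way. It was 262 and 267 bp in pacSC replicates 1 and 2 and 265 bp in elST replicate 3, against 198 to 239 bp in all the other libraries. 1700027A15Rik, which overlaps the spermatid gene Tnp1, had 75.8, 84.9 and 1195 FPKM in the pacSC libraries, 874 FPKM in plpSC replicate 3, 0, 4539 and 3175 FPKM in the rST libraries and 0.57, 875 and 73.0 FPKM in the elST libraries. rST replicate 1 thus lacked a transcript that was abundant in the other rST libraries, and pacSC replicate 3 stood above pacSC replicates 1 and 2. A list of 8 noncoding genes of somatic or fetal tissue, all in the table, summed to 411, 265 and 92.3 FPKM in priSG-A and to 138, 189 and 44.9 FPKM in plpSC. The sum was 225 to 235 FPKM in the priSG-B libraries and 54.1 FPKM in pacSC replicate 3, against 81.0 and 82.3 FPKM in the other pacSC libraries. In the priSG-B and pacSC libraries most of it was Gas5, at 68.7, 69.5 and 36.6 FPKM in pacSC. Neat1, Dnm3os and Miat were also lowest in pacSC replicate 3 among the pacSC libraries, but H19, Meg3, Rian and Mirg were highest there. The sum was highest in replicate 1 of rST, at 110.0 FPKM, and of elST, at 145 FPKM. H19, an imprinted RNA of fetal tissue on that list, had 234, 82.4 and 1.45 FPKM in priSG-A and 15.3, 29.6 and 0.562 FPKM in plpSC, so replicate 3 was the low library of both. The same held for Meg3, Rian and Gas5, but not in both types for Mirg, Dnm3os, Neat1 and Miat. Firre, an X-linked noncoding RNA, had 21.8, 0.553 and 0.324 FPKM in the rST libraries and 14.8, 0.247 and 0.885 FPKM in the elST libraries, and Malat1 and Gm2044 were likewise highest in replicate 1 of both types. They came from lists of noncoding genes of X inactivation and of testis. Of the others there, Xist and Tsix had this order too, and Ftx and Tug1 had it in rST only. Jpx, Neat1, Rbakdn, 1700108J01Rik, 1700101O22Rik and 5430425K12Rik had it in neither type. The part of these differences in the levels of the 227 loci was not tested. None of the 11 coding pachytene markers, 8 spermatogonial, 6 Sertoli, 6 Leydig or peritubular and 5 macrophage or blood markers is in the table, so no label could be checked against these lists. In bulk RNA, fewer cells of a type and less RNA per cell cannot be told apart.

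Of the pacSC and rST libraries, pacSC replicate 3 and rST replicate 1 took no part in the choice. pacSC replicate 3 stood at least 4-fold above rST replicate 1 at 83 of the 227 loci (36.6%), with 0.1 FPKM added to the lower value. Over all loci tested the share was 47.2%, so the share in the set was no higher than over all loci. The opposite, at least 4-fold higher in rST replicate 1, held at 13 loci (5.73%, against 15%). With 1 library each, no test was possible. With 1 FPKM added in place of 0.1, the count was 31 of the 227 loci, a smaller share than the 26.2% of all loci tested. The 6 loci highest in pacSC replicate 3 were Rmrp at 493 FPKM, Gm11837 at 200.2 FPKM, Gm31072 at 184 FPKM, Rbakdn at 141 FPKM, 1700018B24Rik at 109 FPKM and Gm6455 at 101 FPKM.

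The 3 types outside the choice, priSG-A, plpSC and elST, allowed a test with replicates. No locus of the 4117 passed limma with Benjamini-Hochberg adjustment over all loci tested in any of the 3 comparisons, so 0 of the 227 loci were called (0.0% of all loci were called, higher or lower). Without limma's trend and robust options the count was also 0. The comparisons share libraries and are not independent. For elST minus plpSC, the median log2 fold change over the 227 loci was 1.60, against 0.29 over all loci tested, on the log2(FPKM + 1) scale, and 226 of 227 were above 0. The share of all loci above 0 was not counted in any comparison, and loci are not replicates. elST replicate 3 was also closest to pacSC replicate 2 (r 0.98), a library that chose the loci. Of the 227 loci, 6 had an unadjusted p under 0.05 (2.64%, against 0.364% of all loci), and the smallest adjusted p from limma was 0.932. This count depended on single libraries and was 0 without elST replicate 3 or plpSC replicate 1 or 2 (0.0%, 0.0% and 0.0243% of all loci). It was 30 without priSG-A replicate 3 (13.2%, against 0.996%), 37 without plpSC replicate 3 (16.3%, against 7.29%) and 45 without elST replicate 1 (19.8%, against 4.35%). The 6 were Gm10505, Gm11635, Gm48853, Gm49106, Gm49794 and AC163638.2, named after their values were seen, and Gm10505 had a log2 fold change of 3.42 with a standard error of 1.45. For elST minus priSG-A the median was 1.37 (0.52 over all loci), 225 of 227 were above 0, and 4 had an unadjusted p under 0.05 (1.76%, against 1.12%), with a smallest adjusted p of 0.526 from limma. That count was 0 without elST replicate 3 or priSG-A replicate 2 (0.121% and 0.243% of all loci). It was 45 without elST replicate 1 (19.8%, near the 16.8% of all loci) and 56 without priSG-A replicate 3 (24.7%, against 3.33%). Of these 4, Gm10505, Gm11635 and Gm48853 were above 0 and Gm44268 was below 0.

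A single library carried much of both medians. Without elST replicate 3 they were 0.78 for elST minus plpSC, with 213 loci above 0, and 0.62 for elST minus priSG-A, with 194 above 0. Without priSG-A replicate 3 the elST minus priSG-A median was 2.19. For plpSC minus priSG-A the median was -0.14 (0.13 over all loci), 83 loci were above 0, and the 1 locus with an unadjusted p under 0.05 was Gm44268 (0.441%, against 0.121%; adjusted p = 1.0 by limma, and also 1 locus without the trend and robust options). This median changed sign with the library left out: it was 0.59 without priSG-A replicate 3 and -0.81 without plpSC replicate 3. Without the third library of all 3 types, an alternative added after the data were seen, the medians were 0.01 for plpSC minus priSG-A, 1.45 for elST minus plpSC and 1.42 for elST minus priSG-A. With 0 loci called, 0, 64 and 70 had an unadjusted p under 0.05 in limma (0.0%, 28.2% and 30.8%, against 0.0486%, 3.47% and 3.81% of all loci tested). In the full fit the difference between plpSC and priSG-A was smaller than its shift when any 1 library of either type was left out.

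**Figure D2:**
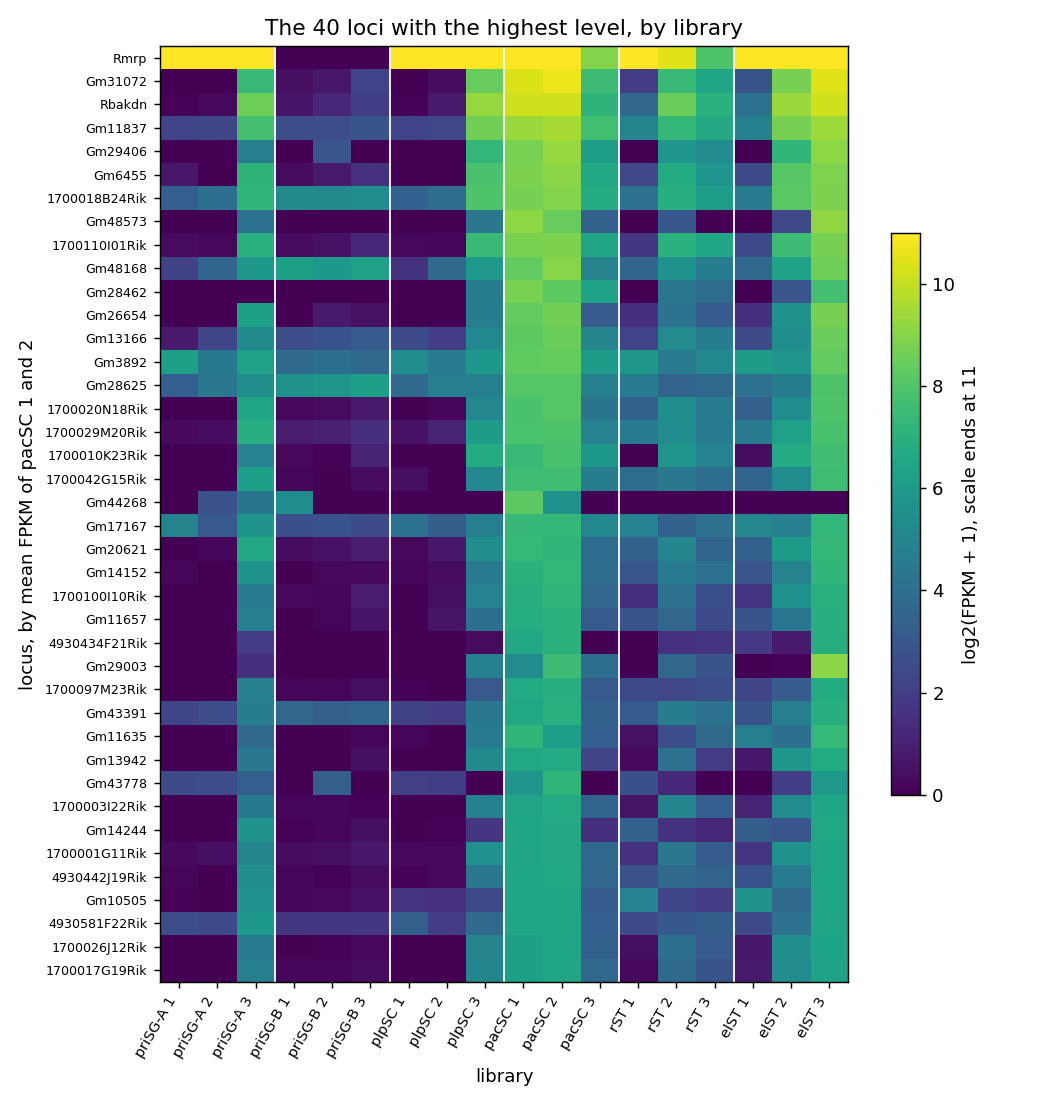
log2(FPKM + 1) in each of the 18 libraries (columns, youngest type at the left) for the 40 loci with the highest P (rows); the color scale ends at 11 and white lines part the types. pacSC replicates 1 and 2 and elST replicate 3 share the bright columns, and Rmrp in the top row is bright in most libraries but at 0 in priSG-B.

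The most abundant locus was Rmrp, the RNA component of the ribonuclease MRP, which processes ribosomal RNA precursors. It is a gene with 1 exon of 281 bp on chromosome 4 (43492783 to 43493063, coordinates on mm10, the GRCm38 build), where Ccdc107 overlaps it on the other strand and a ribozyme gene of the same name on its own strand. Its level was 5423, 54480.3 and 15181 FPKM in priSG-A, 0 in all 3 priSG-B libraries and 5695, 65601 and 2188 FPKM in the plpSC libraries. In the pacSC libraries it was 51841, 66814 and 493 FPKM, in the rST libraries 36309, 1417 and 253 FPKM, and in the elST libraries 57029.8, 2855 and 55398 FPKM. It met the choice through the 0 in priSG-B and the low level in rST replicates 2 and 3, while other libraries of types before and after pacSC stood as high. It is also shorter than 300 bp, as are 18 of the 227 loci. Its 281 bp are close to the fragment length inferred for pacSC replicates 1 and 2, 262 and 267 bp. FPKM rest on an effective length, the transcript length less the fragment length. For such short transcripts this is small, so their values are uncertain.

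Gm31072 and Rbakdn followed, at 1532 and 1181 FPKM in P. Gm31072 is a lincRNA of 2 exons on chromosome 14 (114945999 to 114947584). Its level was 0, 0 and 174 FPKM in priSG-A, 0.353, 0.620 and 3.59 FPKM in the priSG-B libraries and 0, 0.282 and 344 FPKM in the plpSC libraries. In the pacSC libraries it stood at 1380.0, 1685 and 184 FPKM, in the rST libraries at 2.95, 177 and 89.3 FPKM and in the elST libraries at 6.29, 422 and 1425 FPKM. Within priSG-A, plpSC and elST, replicate 3 was the high library, and in the pacSC libraries it was the low one.

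Rbakdn, a lincRNA on chromosome 5 (143164779 to 143165751) named for its place downstream of the gene Rbak, followed the same order. Its level was 0.0801, 0.170 and 385 FPKM in priSG-A, 0.545, 1.31 and 3.11 FPKM in the priSG-B libraries and 0.0904, 0.749 and 608 FPKM in the plpSC libraries. In the pacSC libraries it stood at 1183, 1179 and 141 FPKM, in the rST libraries at 11.5, 363 and 130.3 FPKM and in the elST libraries at 16.3, 654 and 1174 FPKM. elST replicate 3 and pacSC replicates 1 and 2 lay between 1174 and 1183 FPKM at this locus, while rST replicate 2 was above pacSC replicate 3.

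Gm11837, a transcript of 6 exons on chromosome 4 (14929908 to 14953030), lies antisense to Necab1, which encodes a neuronal calcium-binding protein. It stood at 647, 753 and 200.2 FPKM in the pacSC libraries, and its exons overlap those of Necab1, so its reads and those of Necab1 could not be told apart. It did not fall to 0 in the low libraries, with 3.62 and 3.93 FPKM in priSG-A replicates 1 and 2 and 5.11 to 6.27 FPKM in the priSG-B libraries. 1700018B24Rik, a lincRNA on chromosome 3, and Gm48168, on chromosome 13, also kept a measurable level in priSG-B. 1700018B24Rik stood at 464 FPKM in P, against 35.5 to 40.01 FPKM in the priSG-B libraries, and Gm48168 at 425 FPKM in P, against 56.9 to 76.9 FPKM in the priSG-B libraries.

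Gm48573 had an entry of 0 in each of the 3 priSG-B libraries and in 6 of the 11 libraries outside the choice. It stood at 559, 343 and 9.43 FPKM in the pacSC libraries and at 0, 4.25 and 571 FPKM in the elST libraries. This 2-exon transcript of 177 bp on chromosome 12 overlaps an exon of Syndig1l on the other strand. It is shorter than the fragment length inferred for the priSG-B libraries, 234 to 239 bp. The same holds in the libraries where it stood high, pacSC replicates 1 and 2 (262 and 267 bp) and elST replicate 3 (265 bp). Its values are thus uncertain in all of these libraries. Rmrp is listed at 0 in priSG-B too, and the 0 entries are not read as absence. 1700110I01Rik, on chromosome 14, stood at 436, 452 and 91.4 FPKM in the pacSC libraries, and its ratio of P to the spermatid mean, 4.08, was close to the threshold of 4. Gm6455, on chromosome 5, stood at 457, 539 and 101 FPKM in the pacSC libraries and has 14 near-identical copies elsewhere in the annotation, so its reads are uncertain.

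The threshold values parted loci that differ little. Just inside the level of 5 FPKM were 4930553I04Rik at 5.001, Gm40884 at 5.06 and G730003C15Rik at 5.15 FPKM, and just outside it Gm49978 at 4.99, Gm38225 at 4.98 and 4930463O16Rik at 4.98 FPKM. For the ratio to the spermatid mean, 1700007L15Rik at 4.02, Gm26886 at 4.05 and Gm47956 at 4.06 were inside, and 1700108J01Rik at 3.99, Gm43763 at 3.98 and Gm26879 at 3.96 were outside. For the ratio to the priSG-B mean, 5830454E08Rik at 4.02, Gm35558 at 4.05 and Gm44379 at 4.06 were inside, and 4732440D04Rik at 3.95, Gm43107 at 3.90 and E130317F20Rik at 3.85 were outside. 1700108J01Rik, left out by this margin, stood at 172 FPKM in P.

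The 3 pairs that start back to back within the set had partners of unequal level. Gm31072 stood at 1532 FPKM in P and 1700100I10Rik, which starts 51 bp away on the minus strand, at 135 FPKM, a ratio of 11.4. Their spliced lengths are 314 and 1053 bp, and the part of length in this ratio was not tested. 1700100I10Rik stood at 0, 0.358 and 28.6 FPKM in the plpSC libraries, 119.7, 149 and 11.3 FPKM in the pacSC libraries and 2.15, 47.2 and 126 FPKM in the elST libraries. Over the 18 libraries the log2 levels of the 2 had a Pearson's r of 0.98, a description over libraries that share depth and label, 7 of which chose both loci.

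Gm26654 and 4930477E14Rik, on chromosome 3, start 367 bp apart. Gm26654 (96402381 to 96402948, plus strand) stood at 328, 399 and 8.13 FPKM in the pacSC libraries and at 1.89, 48.3 and 423 FPKM in the elST libraries. 4930477E14Rik (96401150 to 96402014, minus strand) stood at 11.4, 11.2 and 0.300 FPKM in the pacSC libraries and at 0.123, 0.868 and 12.7 FPKM in the elST libraries. The first was 32.1 times the second in P, and r was 0.91. Gm26654 has a spliced length of 256 bp. That is shorter than the fragment length inferred for pacSC replicates 1 and 2 (262 and 267 bp) and elST replicate 3 (265 bp). Its level and this ratio are thus uncertain. Both loci were lowest, among pacSC libraries, in replicate 3.

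Gm10619 and Gm21269, on chromosome 7, start 43 bp apart and were closer in level, with a ratio of 1.92 in P. Gm10619 (73781429 to 73816503, minus strand, spliced length 3287 bp) had 0.0405, 0.0556 and 26.6 FPKM in priSG-A, 0.0777, 0.0274 and 1.82 FPKM in the plpSC libraries, 69.1, 71.2 and 1.09 FPKM in the pacSC libraries, 6.34, 1.98 and 0.912 FPKM in the rST libraries and 5.97, 3.56 and 68.6 FPKM in the elST libraries. Gm21269 (73816546 to 73838898, plus strand, spliced length 12456 bp) stood at 36.1, 37.0 and 0.855 FPKM in the pacSC libraries and at 3.22, 2.10 and 36.8 FPKM in the elST libraries. Their log2 levels had r of 1.0 over the 18 libraries. Unlike Gm31072, both were higher in rST replicate 1 than in rST replicates 2 and 3.

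**Figure D3:**
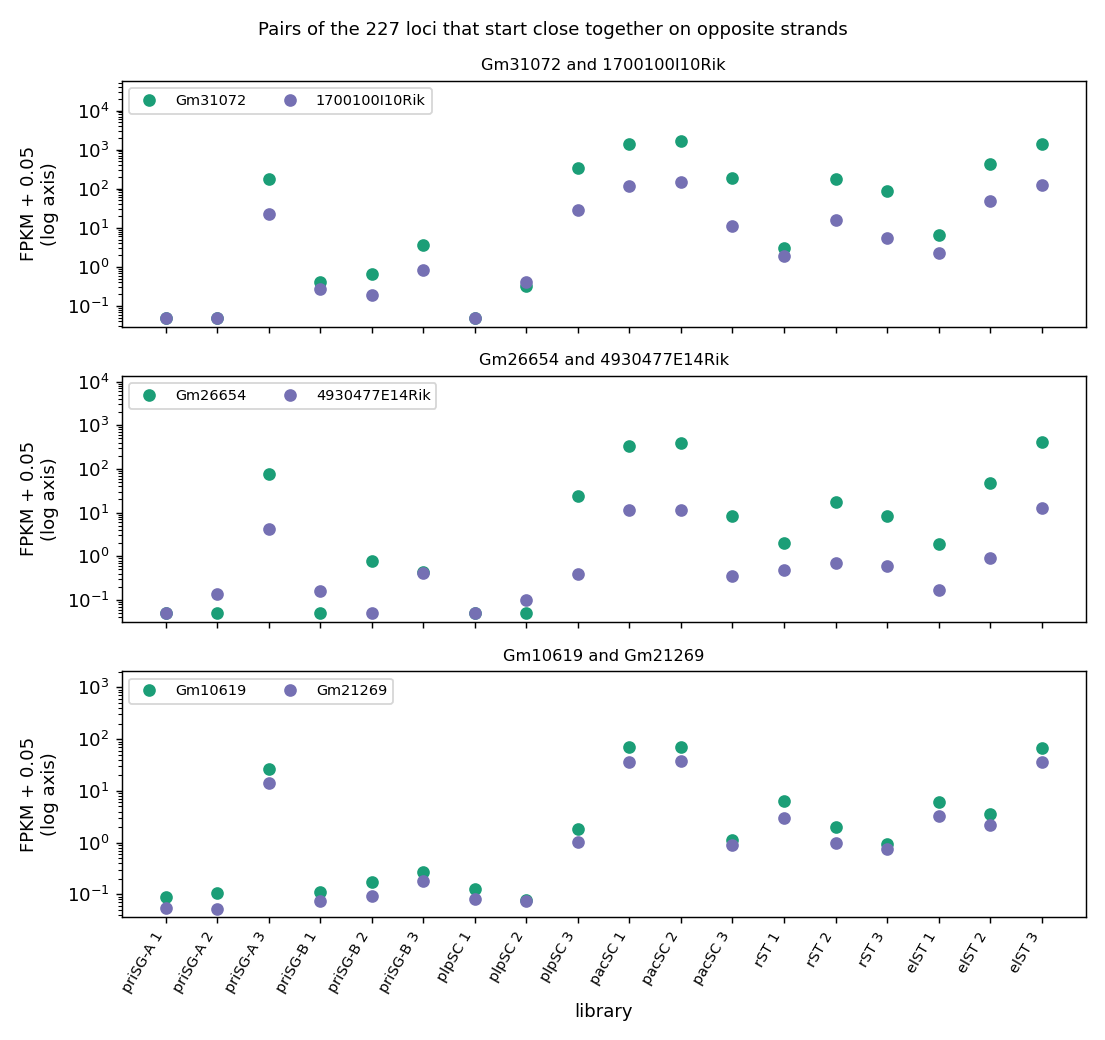
FPKM plus 0.05 on a log axis in each of the 18 libraries for the 3 pairs of loci that start within 1000 bp of each other on opposite strands; each point is 1 library. In each pair both loci are highest in pacSC replicates 1 and 2 and elST replicate 3, at a ratio in P of 11.4 for the top pair, 32.1 for the middle pair and 1.92 for the bottom pair. Gm26654 is shorter than the fragment length inferred for these libraries, so the ratio of 32.1 is uncertain.

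Loci of the set also lay near each other on the chromosomes, and the counts that follow include the 3 pairs that start back to back. Within 100 kb of a neighbour in the set were 37 loci (16.3%, against 4.3% of all loci tested, members included, that lay within 100 kb of another of the 227), in 17 clusters of at most 3. On chromosome 17, Gm10505 (27325035 to 27344833) and Gm49794 (27354111 to 27367492) follow each other on the plus strand, and on chromosome 5, 4930405N21Rik and Gm43353 lie together. Gm10505 stood at 90.1, 88.7 and 8.24 FPKM in the pacSC libraries and at 47.4, 12.8 and 89.3 FPKM in the elST libraries, and Gm49794 at 22.1, 20.6 and 1.02 FPKM in the pacSC libraries and at 8.66, 1.32 and 21.2 FPKM in the elST libraries.

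MicroRNA hairpins lie within 4 of the loci on their strand (1.81%, against 0.999% of all loci tested). The mature 5p sequences, as listed by RefSeq on GRCm38.p6, are shown because their hairpins lie within these 4 loci. Whether the transcripts of these loci give rise to the microRNAs was not tested. Capitals mark the seed, bases 2 to 8. Gm10505 holds Mir7216 in an intron, Gm49794 holds Mir7217 and Mir7218, Gm21269 holds Mir7234, and 4833445I07Rik holds Mir191 and Mir425.
mmu-miR-7216-5p, in Gm10505: uGGAGAGCuggcagaggacccaga
mmu-miR-7217-5p, in Gm49794: aACUUGUAucuugugagacagaagg
mmu-miR-7218-5p, in Gm49794: uGCAGGGUuuaguguagaggg
mmu-miR-7234-5p, in Gm21269: uUGUUUUCuccaaagacguuucu
mmu-miR-191-5p, in 4833445I07Rik: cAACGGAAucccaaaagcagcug
mmu-miR-425-5p, in 4833445I07Rik: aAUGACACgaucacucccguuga

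No seed was shared among the 6. The levels here are those of the loci and not of the microRNAs. 4833445I07Rik, which holds the hairpins of the widely expressed miR-191 and miR-425, stood at 7.96, 8.27 and 0.851 FPKM in the pacSC libraries, 2.61, 0.714 and 0.456 FPKM in the rST libraries and 3.64, 1.32 and 8.82 FPKM in the elST libraries.

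The loci did not all order elST replicates 1 and 2 the same way, a comparison chosen after the values were seen. At 144 loci elST replicate 2 was at least 2-fold above replicate 1, with 0.1 FPKM added to the lower (63.4%, against 55.2% of all loci tested), and at 14 loci replicate 1 was at least 2-fold above replicate 2 (6.17%, against 24.1%). Among the 14 were Rmrp, Gm10505, Gm49794, 4930405N21Rik, Gm43353, 4833445I07Rik and 1700040D17Rik, the locus beside Tdrkh. The median over the 14 was 3.26 FPKM in rST replicate 1 and 0.395 FPKM in pacSC replicate 3, and over the 144 it was 0.532 and 3.65 FPKM in the same libraries. Over all loci tested rST replicate 1 resembled elST replicate 1 (r 0.95) and pacSC replicate 3 resembled elST replicate 2 (0.91), so these medians are no separate measure of the split. Single loci went against the medians: Trmt61b, 1 of the 144, had 5.57 FPKM in rST replicate 1 and 2.96 FPKM in pacSC replicate 3. In pacSC replicates 1 and 2 the medians were 20.9 and 20.8 FPKM over the 14 and 20.8 and 21.5 FPKM over the 144.

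**Figure D4:**
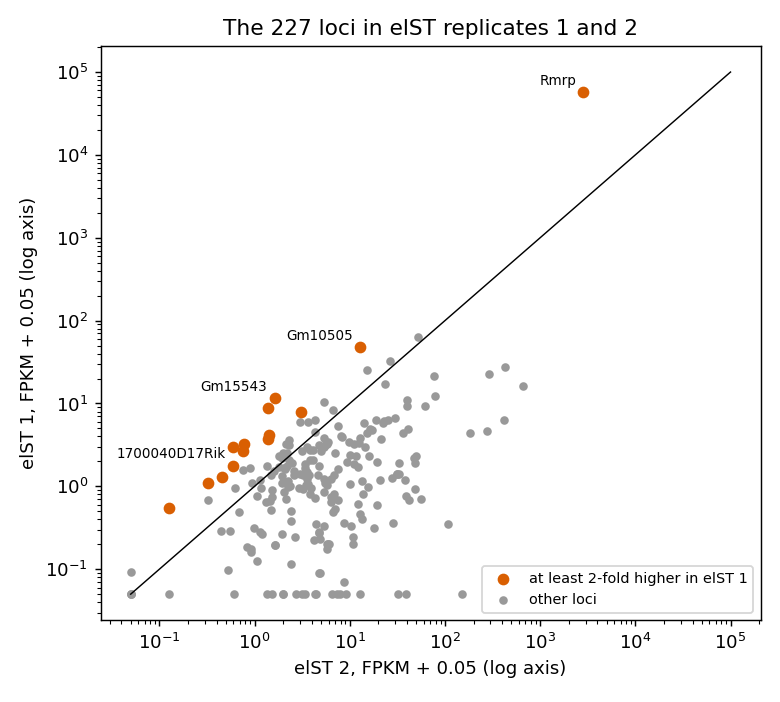
FPKM plus 0.05 on log axes for the 227 loci in elST replicate 1 (vertical) against elST replicate 2 (horizontal); the line marks equal levels and orange points are the 14 loci at least 2-fold higher in replicate 1. Most points, 144 of 227, lie at least 2-fold below the line.

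1700040D17Rik, on chromosome 3 (94409395 to 94412919), starts 354 bp from Tdrkh. It stood at 16.1, 14.8 and 0.237 FPKM in the pacSC libraries, 0.996, 0.312 and 0.183 FPKM in the rST libraries and 1.73, 0.541 and 14.8 FPKM in the elST libraries. 4930426I24Rik, beside Hspa2, was more even, at 12.8, 11.1 and 2.44 FPKM in the pacSC libraries, 2.26, 1.98 and 1.97 FPKM in the rST libraries and 3.78, 5.26 and 11.9 FPKM in the elST libraries. Gm48853, beside H2afx, stood at 15.9, 27.4 and 6.21 FPKM in the pacSC libraries and 1.05, 5.49 and 33.5 FPKM in the elST libraries. Gm15543, which overlaps Casc1 outside its exons on chromosome 6, was the 1 locus of the 227 whose highest library was neither a pacSC library nor elST replicate 3. It had 0.572, 0.810 and 17.95 FPKM in priSG-A, with 5.59, 4.93 and 0.196 FPKM in the pacSC libraries.

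Other loci with gene-like names were low to moderate. Trmt61b here is an antisense transcript on chromosome 17 whose exons overlap Spdya, a gene for a cyclin-dependent kinase activator that acts at telomeres in meiosis. It stood at 23.4, 29.0 and 2.96 FPKM in the pacSC libraries, and which gene its reads came from could not be told apart. BC048644, which overlaps Car5a and starts 139 bp from the amino acid transporter gene Slc7a5, stood at 18.7, 16.0 and 3.68 FPKM in the pacSC libraries. D6Ertd474e stood at 19.5, 22.4 and 6.94 FPKM in the pacSC libraries and at 0.262, 17.9 and 22.04 FPKM in the elST libraries. AC163638.2, absent from M21, stood at 24.3, 23.6 and 1.53 FPKM in the pacSC libraries, and Vmn2r-ps111, which overlaps vomeronasal receptor pseudogenes, at 3.84, 9.23 and 0 FPKM.

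The X chromosome held 8 of the 227 loci (3.52%, against 1.89% of all loci tested) and the Y held 3 (1.32%, against 0.534%). All 8 X loci, Gm17469, Gm17412, Gm17467, Gm17584, Gm17577, Gm17361, Gm17522 and Gm50465, stood between 20.05 and 21.2 FPKM in pacSC replicate 1 and between 0 and 0.985 FPKM in pacSC replicate 2. In elST replicate 3 they were at most 1.53 FPKM. They met the threshold on P through 1 library, and none met the thresholds in pacSC replicate 2 alone. Gm17469 had the highest P of them, at 11.1 FPKM, with 3.85 FPKM in plpSC replicate 3, 3.43 FPKM in pacSC replicate 3 and 5.78 FPKM in elST replicate 2. Of the 8, 3 are in M21 and each of these has 35 near-identical copies, so their reads cannot be assigned to 1 locus and the near-equal values are not 8 separate measurements.

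The 3 Y loci are also members of repeated families. Gm29406 has 19 near-identical copies and stood at 443, 635 and 69.0 FPKM in the pacSC libraries and 0, 149.5 and 565 FPKM in the elST libraries. Its spliced length of 235 bp is below the fragment length inferred where it stood highest, so its values are uncertain. Gm28462 and Gm29003 have 25 near-identical copies each and are copies of each other. Gm28462 stood at 444, 299 and 80.3 FPKM in the pacSC libraries and 0, 6.42 and 207 FPKM in the elST libraries, while Gm29003 stood at 39.1, 186 and 14.5 FPKM in the pacSC libraries and 0, 0.0765 and 548 FPKM in the elST libraries. Gm28462 was the higher of the 2 in all 3 pacSC libraries and Gm29003 the higher in elST replicate 3.

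Over the whole set, 41 loci had a near-identical copy (at least 95% identity over at least 50% of the length), 18.6% of those in M21 (against 15.7% of all loci tested), and 12 had 10 or more (5.43%, against 3.0%). The clearest case is a pair with the same sequence on chromosome 6, shown because reads inside them cannot tell the 2 apart. Gm44268 (139140770 to 139140933) and Gm44379 (4364232 to 4364395), each 164 bp, differ at 0 positions.
Gm44268 and Gm44379: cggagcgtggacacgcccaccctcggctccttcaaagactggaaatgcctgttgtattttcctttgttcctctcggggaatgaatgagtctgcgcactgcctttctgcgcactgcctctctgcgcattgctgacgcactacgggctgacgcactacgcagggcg

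Both were listed at 39.3 FPKM in priSG-B replicate 1 and at 48.1 FPKM in pacSC replicate 2. In pacSC replicate 1, however, Gm44268 was listed at 296 FPKM and Gm44379 at 59.3 FPKM, and in elST replicate 3 at 0 and 168 FPKM. They are shorter than the other loci named here, and their values are uncertain for that reason as well.

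**Figure D5:**
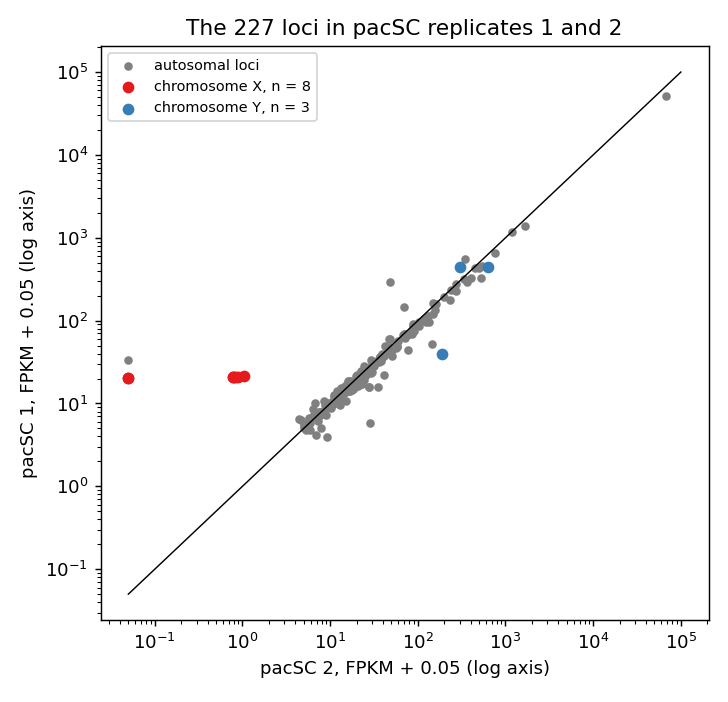
FPKM plus 0.05 on log axes for the 227 loci in pacSC replicate 1 (vertical) against pacSC replicate 2 (horizontal), with loci on chromosomes X and Y in color and the line at equal levels. Most loci lie along the line, and the 8 X-linked loci lie together at 20.05 to 21.2 FPKM in replicate 1 and under 1 FPKM in replicate 2.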

How the data were processed

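The authors deposited 1 table of FPKM values per locus and library. HISAT2 and StringTie were run on mm10, per the submitters' processing notes; their versions, the annotation, the strand setting and any filters are not given in the sources used. Loci were matched to GENCODE M21 by identifier (13191 of 13218). The table holds no read totals. Depth and fragment length were inferred together from the steps of low FPKM values at loci with a single exon. Of these values, 98.3 to 99.49% were whole multiples within a tolerance of 0.02. Depth ran from 31.7 to 92.1 M (mega) fragments per library. It limits the precision of low values, and no counting interval is given.

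The members and lists were chosen with earlier results of these data known. Levels were tested as log2(FPKM + 1), a scale that understates the change of low loci, at the 4117 loci with 1 FPKM or more in at least 3 of the 18 libraries, and all 227 members passed. limma (3.58.1, under R 4.3.3) was fitted with its trend and robust options to the 9 libraries of priSG-A, plpSC and elST with 1 coefficient per type, two-sided, with Benjamini-Hochberg adjustment over all loci tested and a threshold of 0.05. It was tested on simulated data first. The alternatives were another pseudocount, other filters, quantile normalization, all 18 libraries, no trend, a replicate block, leaving out each library and, added after the data were seen, leaving out the third library of these types. In their deviations from the type means, same-numbered libraries correlated at 0.65, 0.682 and 0.728 between priSG-A and plpSC. Unlike-numbered libraries 1 and 2 of these types also correlated, at 0.509 and 0.561. Replicate 3 stood apart in both types, so this measure does not settle whether the numbers pair them. The labels give no shared source. The numbers do not pair elST with priSG-A (0.613, -0.461 and 0.647) or with plpSC (0.869, -0.826 and 0.388). Near-identical copies were found with BLAST+ 2.17.0 among M21 transcripts. Named loci were the 12 with the highest P, the 6 highest in pacSC replicate 3, the X-linked locus with the highest P, the 3 nearest each threshold on each side, those with names other than Gm or RIKEN numbers and pairs within 1000 bp. The remaining named loci, the promoter windows shown, the loci with microRNA hairpins, repeated families and loci beside Tdrkh, Hspa2 and H2afx were chosen after their values were seen. Tables and plots were made with Python 3.11.15, numpy 2.4.6, pandas 2.3.3 and matplotlib 3.10.9.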

Additional observations from a re-analysis of the deposited data

How the results depend on the processing

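No locus of the set passed the threshold in the 3 limma comparisons under any alternative run: a pseudocount of 0.1, no filter, a filter of 5 FPKM (which kept 211 of the loci), quantile normalization, all 18 libraries, no trend or robust estimation, the replicate block, and each library left out in turn (0 to 0). With the replicate block 0 loci were called. The smallest adjusted p by limma was then 0.981 for plpSC minus priSG-A, 0.492 for elST minus plpSC and 0.305 for elST minus priSG-A. With the block, 1, 146 and 115 loci had an unadjusted p under 0.05 in limma (0.441%, 64.3% and 50.7%, against 0.316%, 6.39% and 10.3% of all loci). Without the block they were 1, 6 and 4 (0.441%, 2.64% and 1.76%, against 0.121%, 0.364% and 1.12%). The numbers do not pair elST with either type, and whether they pair priSG-A with plpSC is not settled. In priSG-A and plpSC alone the block also gave 0 calls (smallest adjusted p 0.732 by limma). There 0 of the 227 loci had an unadjusted p under 0.05 in limma with the block (0.899% of all loci) and 0 without it (0.0486%). All 18 libraries gave 0, 20 and 7 such loci (0.0%, 8.81% and 3.08%, against 0.194%, 1.02% and 3.5% of all loci). Without trend and robust options limma gave 1, 7 and 4 (0.441%, 3.08% and 1.76%, against 0.121%, 0.34% and 1.29%). Without each library in turn, the median log2 fold change ran from 0.78 to 2.37 for elST minus plpSC, from 0.62 to 2.19 for elST minus priSG-A and from -0.81 to 0.59 for plpSC minus priSG-A. It was 0.17 and 0.11 without plpSC replicates 1 and 2, and -0.62 and -0.60 without priSG-A replicates 1 and 2. Quantile normalization gave medians of -0.40 for plpSC minus priSG-A, 1.16 for elST minus plpSC and 0.74 for elST minus priSG-A. A pseudocount of 0.1 gave -0.12, 2.71 and 2.54 in the same order. Of the 227 loci, 83 were at least 4-fold higher in pacSC replicate 3 than in rST replicate 1 (36.6%, against 47.2% of all loci tested). With 1 FPKM added the count was 31 of the 227, against 26.2% of all loci tested. At a fold of 2 it was 101 of the 227, against 53.9%. Each share in the set was below that of all loci. With 1 FPKM added, low loci cannot reach the fold. At a level of 1 FPKM in place of 5, the loci reached in priSG-A were 38, 44 and 214 (16.7%, 19.4% and 94.3%, against 36.0%, 35.5% and 55.0% of all loci tested). In plpSC they were 42, 46 and 182 (18.5%, 20.3% and 80.2%, against 35.0%, 36.4% and 65.5%). There were 155 in pacSC replicate 3 (68.3%, against 65.0%) and 109 in rST replicate 1 (48.0%, against 37.0%). In elST they were 128, 200 and 220 (56.4%, 88.1% and 96.9%, against 40.3%, 66.9% and 64.1%). Exon overlap could be looked up for only 3 of the 8 X-linked loci, so the count without overlapping loci is no check. A motif search in the shorter window was not run, since too few promoters matched.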
